A study of Homo sapiens with 6 samples.

Results

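The aminoacyl-tRNA synthetase genes and their partners were followed through a knockdown of the splicing factor SON. The set was taken by name from the deposited gene count table: every protein-coding gene whose symbol is a single amino acid letter followed by ARS, with or without a final 2, together with FARSA, FARSB, EPRS, TARSL2, AARSD1, AIMP1, AIMP2 and EEF1E1. This gave 42 of the 58735 genes in the table, namely 21 genes of cytosolic enzymes, 17 genes of mitochondrial enzymes (names ending in 2), 3 scaffold proteins and 1 editing protein. The cells were RPE-1, a human retinal pigment epithelial line, carrying GFP-tagged CETN2 to mark centrioles and PLK4 under a doxycycline-inducible (rtTA) promoter. Both groups received doxycycline at 1 µg/mL to induce PLK4, so the controls also carried the induced kinase. In the siControl group (3 libraries) the cells were transfected with a scramble siRNA, and in the siSON group (3 libraries) with an siRNA against SON. The labels do not say whether the 3 libraries of a group came from separate cultures, so p-values measure the spread between these libraries, which may be technical.

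Each aminoacyl-tRNA synthetase joins a particular amino acid to its tRNAs, which is the step at which the genetic code is read into protein. Human cells keep separate nuclear genes for most cytosolic and mitochondrial enzymes, while GARS and KARS supply both compartments from the same gene. In the cytosol several synthetases are held with 3 scaffold proteins in the multi-synthetase complex, and the others act free of it. The transcription factor ATF4, which is activated when amino acids are short, is known to raise many of the cytosolic synthetase genes. SON is a nuclear speckle protein that aids the splicing of introns with weak splice sites.

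Library totals ran from 54572365 to 69764836 counts. SON itself had 295.3, 312.7 and 283.9 CPM (counts scaled to a common library total with TMM factors) in the siControl libraries and 67.96, 69.96 and 65.00 CPM in the siSON libraries, which did not overlap (log2 -2.14, edgeR adjusted p 6.78e-10). Of the visual-cycle markers of pigment epithelium, RPE65 and RLBP1 together reached at most 0.258 CPM in any library, so these defining genes were near 0. Other genes of that tissue were expressed and called higher in siSON, namely MITF (21.7 and 31.1 CPM in siControl and siSON), PAX6 (39.8 and 127) and BEST1 (8.13 and 12.5). Of the cytoskeletal markers of the line, KRT18 rose 2.79-fold (log2 1.48), KRT8 rose by 0.34 and VIM was not called (-0.14). PTPRC, PECAM1 and EPCAM, markers of other cell types, were summed with the pigment gene TYR. The sum was 2.36 to 3.31 CPM in siControl and 0.551 to 1.19 CPM in siSON. TYR, which is not particular to other cell types, had 0 counts in every library. The part of these markers in the results was not tested.

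All 42 genes passed the filter on low counts and were tested. By edgeR's quasi-likelihood test at an adjusted p under 0.05, which here is what "called" means, 25 were higher and 10 lower after SON knockdown, and 7 did not pass. This share, 83.3%, stood beside 71.7% of all genes tested, 77.4% of protein-coding genes and 81.8% of protein-coding genes with a mean of at least 10 CPM, so the number of changed genes was near the background. Higher genes were 25 of the 42, beside 35.2% of all genes tested, 40.3% of protein-coding genes and 50.1% of those with a mean of at least 10 CPM. Lower genes were 10 of the 42, beside 36.5%, 37.1% and 31.7%. The median log2 fold change (siSON over siControl, written below as log2 change) of the 42 genes was 0.41, beside 0.028 for protein-coding genes and -0.027 for all genes tested. The CPM values of the groups did not overlap for 37 of the 42, beside 75.1% of all genes tested and 79.9% of protein-coding genes.

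Cytosolic genes mostly rose, while mitochondrial genes were split; the difference between the compartments was not tested. Of the 21 cytosolic genes, 16 rose and 5 fell (median log2 change 0.80), and of the 17 mitochondrial genes 6 rose, 5 fell and 6 were not called (median 0.13). Without GARS and KARS, which serve both compartments, 14 cytosolic genes rose and 5 fell. Of the changes of at least 2-fold, all 5 rises were in cytosolic genes, while 2 of the 6 falls were cytosolic and 4 mitochondrial. At least 2-fold rises made up 8.72% of all and 8.62% of protein-coding genes tested, and at least 2-fold falls 20.5% and 18.7%. In CPM summed over genes, the cytosolic set had 2604, 2448 and 2558 in siControl and 4184, 3785 and 3844 in siSON. The mitochondrial set had 513, 489 and 497 CPM in siControl and 522, 514 and 513 in siSON. The cytosolic sum was therefore 1.55-fold higher with groups well apart, and the mitochondrial sum 1.03-fold higher, with groups that overlapped through siControl replicate 1 alone. Summed per kilobase of exon, the mitochondrial genes had 115, 113 and 115 CPM in siControl and 127, 126 and 124 in siSON, 1.10-fold higher without overlap, and the cytosolic genes were 1.52-fold higher. These sums depend on the TMM factors (1.06 to 1.08 in siControl, 0.926 to 0.945 in siSON) and were not computed under other scalings. Under library size alone the mitochondrial median log2 change was -0.070. Scaling by library size alone moved the log2 changes of all genes by a median of -0.20 and cyclic loess normalization by 0.14. Under library size alone 15 cytosolic genes rose and 5 fell, and 4 mitochondrial genes rose and 6 fell. Under cyclic loess normalization the splits were 13 and 5, and 6 and 5. There the cytosolic median log2 change was lower, at 0.51, although the median shift over all genes was upward.

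**Figure D1:**
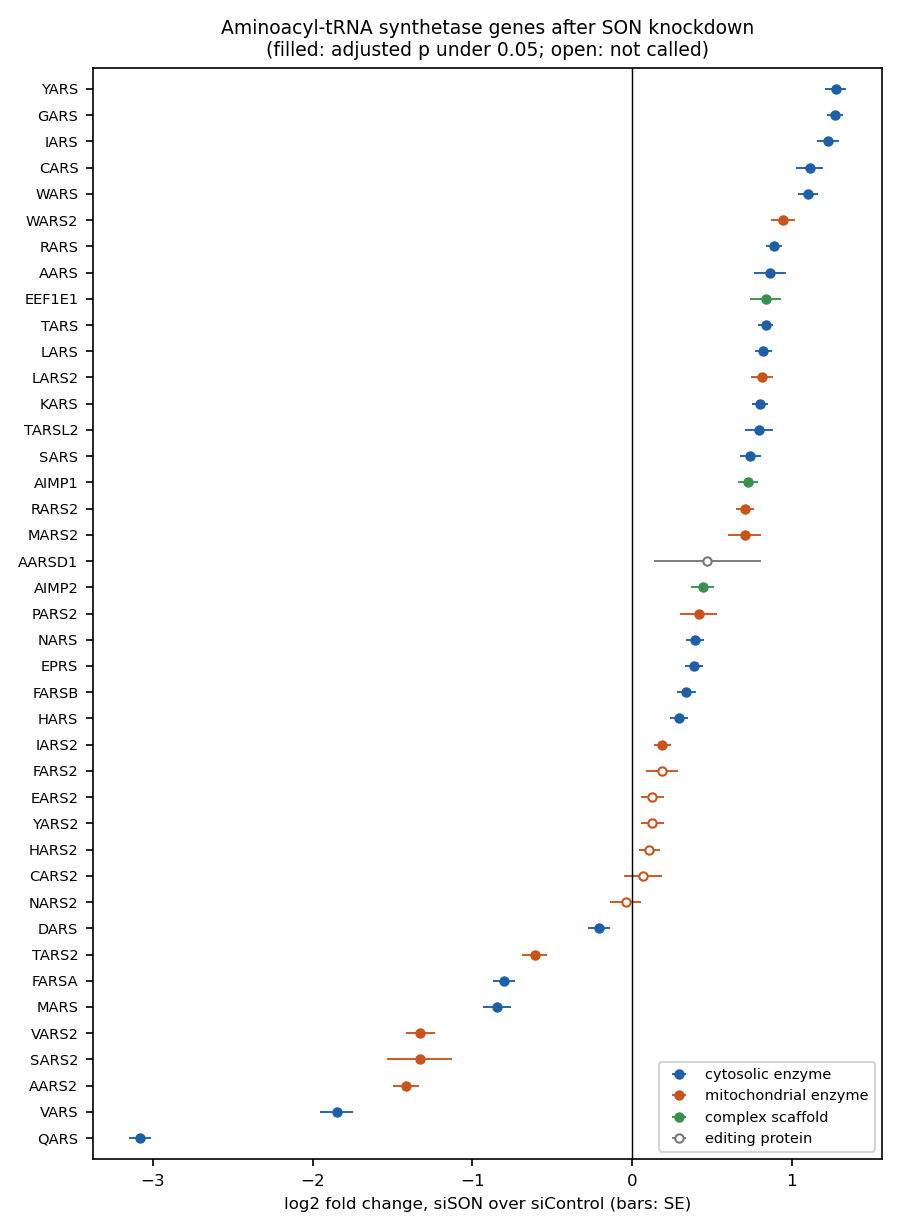
Log2 fold change, siSON over siControl, of 41 of the 42 genes with its standard error, ordered by value and coloured by compartment; filled points had an adjusted p under 0.05. Cytosolic genes hold the 5 highest places and also the lowest, QARS at -3.08.

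A group of 12 cytosolic genes known as targets of ATF4 was compared with the other 9 cytosolic genes. The ATF4 lists used here were chosen with earlier results of these data known, so the comparison is a description only. In the first group 11 rose and 1, MARS, fell (median log2 change 0.85), with GARS and YARS having the smallest adjusted p. It holds AARS, CARS, EPRS, GARS, IARS, LARS, MARS, NARS, SARS, TARS, WARS and YARS, and all 5 of the genes that rose at least 2-fold. In the second group 5 rose (RARS, KARS, TARSL2, FARSB and HARS) and 4 fell (QARS, VARS, FARSA and DARS), with a median of 0.30. ATF4 itself had 233.4, 244.4 and 256.0 CPM in siControl and 612.4, 571.6 and 583.6 CPM in siSON, more than doubling in every siSON library (log2 change 1.27, SE 0.05, adjusted p 5.83e-09). Among protein-coding genes with a mean of at least 10 CPM, 81.8% were called, 50.1% higher and 31.7% lower. Near this share, 22 of 26 genes made up of ATF4 and its known targets outside the synthetases were called. Of these 26, 17 were higher, 5 lower and 4 not called, with a median of 0.71. The smallest adjusted p-values were those of SHMT2, a mitochondrial serine hydroxymethyltransferase that fell by 1.94, and XPOT, the export receptor of tRNA, which rose by 1.51 (adjusted p 8.39e-10 and 2.90e-09). The part of ATF4 in the rise of the synthetase genes was not tested.

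ATF4 acts through the C/EBP-ATF response element, and its core TGATGNAA was searched on both strands of RefSeq promoter windows (GRCh38.p14, 250 bases before to 50 after each start). Windows were found for 34 of the 42 genes. The core was present in 7 of the 16 cytosolic genes with a window and in 1 of the 14 mitochondrial genes, beside 4.46% of all 27305 genes with a window. All 7 cytosolic holders belong to the 10 listed ATF4 targets that had a window. ATF4 is known to act on several synthetase genes through this element, so the list and the core are not independent. LARS and YARS, the other listed targets, had no window. The 7 cytosolic holders, MARS apart, were called higher. Among cytosolic genes with a window but no core, EPRS, FARSB, HARS, KARS, RARS, SARS and WARS were also called higher. FARSA and QARS, likewise without the core, were called lower. The stretches below show the core in capitals, read 5′ to 3′ on the strand that carries TGATGNAA.
AARS: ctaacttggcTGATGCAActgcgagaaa
CARS: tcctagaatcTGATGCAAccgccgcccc
IARS: cgcacggaggTGATGCAAcgcgctgaaa
MARS: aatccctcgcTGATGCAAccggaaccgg
NARS: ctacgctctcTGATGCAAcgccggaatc
TARS: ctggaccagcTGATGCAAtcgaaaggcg
GARS: gctcggagcaTGATGAAAtcgccgcgta

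These stretches lie at chr16:70289676-70289703 (AARS, plus strand), chr11:3057408-3057435 (CARS, plus), chr9:92293693-92293720 (IARS, plus), chr12:57488054-57488081 (MARS, minus), chr18:57621805-57621832 (NARS, minus), chr5:33440957-33440984 (TARS, minus) and chr7:30594835-30594862 (GARS, minus). In CARS, IARS and MARS the core begins 2, 13 and 4 bases before the start, in GARS 33 and in AARS 187, each read along the gene. In NARS and TARS it lies just after the start. The start here is that of the RefSeq window, which for genes such as MARS and GARS differs from the gene bounds given below. Of the mitochondrial genes YARS2, which was not called, held the core. MARS, which fell, holds the same 8 letters as AARS, which rose. A match is a description of the letters and was not tested for binding.

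The enzymes of the multi-synthetase complex moved in opposite directions. Of the 8 genes, 5 rose (IARS, RARS, LARS, KARS and EPRS) and 3 fell (QARS, MARS and DARS). This split stood beside 50.1% called higher and 31.7% lower among protein-coding genes with a mean of at least 10 CPM. QARS, the glutamine enzyme (ENSG00000172053; GRCh38 chromosome 3, 49095932 to 49105135, minus strand, 24 exons), had 182.3, 172.2 and 183.7 CPM in siControl and 21.37, 22.69 and 19.48 CPM in siSON. The siSON libraries lay close together and far below every control, with 11.8% of the control mean left. The QARS log2 change was -3.08 (SE 0.07, edgeR adjusted p 4.06e-10), the largest fall of the set. MARS, the methionine enzyme (ENSG00000166986; chromosome 12, 57475445 to 57517569, 21 exons on the plus strand), had 148.8, 143.1 and 143.6 CPM in siControl and 90.39, 83.94 and 68.40 CPM in siSON. The groups did not overlap, siSON replicate 3 was the lowest, and the log2 change was -0.84 (SE 0.09, adjusted p 6.11e-06). MARS shares 5.05% of its exonic bases with DDIT3, on the other strand, which rose from 14.2 ± 0.253 to 41.7 ± 8.50 CPM (mean ± SD of 3 libraries). The strand setting of the counting is not stated, so reads from the shared stretch cannot be assigned with certainty.

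IARS, the isoleucine enzyme (ENSG00000196305; chromosome 9, 92210207 to 92293756, minus strand, 34 exons), had 219.9, 189.4 and 204.2 CPM in siControl and 521.9, 450.2 and 466.2 CPM in siSON. Every siSON library was above 450 CPM and every control below 220, and the log2 change was 1.23 (SE 0.07, adjusted p 5.03e-08). KARS, the lysine enzyme, went from 117.8, 116.4 and 120.3 CPM to 217.4, 199.5 and 200.8 CPM, a log2 change of 0.80 (SE 0.05, adjusted p 1.41e-07). This enzyme is made for the cytosol and the mitochondrion from a common gene. RARS (arginine) and LARS (leucine) rose by similar amounts, with log2 changes of 0.89 and 0.82 and no overlap between groups. EPRS, a fused enzyme that charges both glutamate and proline tRNAs, rose less, from 215 ± 13.1 to 282 ± 1.86 CPM (mean ± SD of 3 libraries), a log2 change of 0.39, and this call was lost under cyclic loess normalization (0.054, limma adjusted p 0.361). DARS, the aspartate enzyme, fell slightly, from 38.3 ± 1.35 to 33.2 ± 1.78 CPM, a log2 change of -0.21 (adjusted p 0.0172). The DARS call was lost without siControl replicate 3 (-0.19, adjusted p 0.0607) and without siSON replicate 1 (-0.15, adjusted p 0.0614).

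All 3 scaffold genes of the complex rose. AIMP1, also known as p43, had 37.49, 33.77 and 36.18 CPM in siControl and 61.36, 57.32 and 59.06 CPM in siSON (log2 change 0.73, SE 0.06, adjusted p 1.47e-06). AIMP2, also known as p38, had 19.63, 18.69 and 18.32 CPM in siControl and 26.93, 25.73 and 24.28 CPM in siSON (0.44, SE 0.07, adjusted p 0.000251). EEF1E1, or AIMP3, was the least counted, with 6.29, 6.32 and 6.09 CPM in siControl and 11.98, 10.63 and 10.80 CPM in siSON (0.84, SE 0.10, adjusted p 1.25e-05). The groups did not overlap for any of the scaffolds. Among protein-coding genes tested, 79.9% had groups that did not overlap and 40.3% were called higher. The scaffolds rose while the complex enzymes QARS, MARS and DARS fell. AIMP2 shares 28.9% of its exonic bases with EIF2AK1 on the other strand, and EEF1E1 shares 18.7% with the read-through gene EEF1E1-BLOC1S5 on its own strand.

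Of the 13 genes of free-standing cytosolic enzymes, 11 rose and 2 fell. Among protein-coding genes with a mean of at least 10 CPM, 50.1% were called higher and 31.7% lower. YARS, the tyrosine enzyme (ENSG00000134684; chromosome 1, 32775237 to 32818153, minus strand, 13 exons), had 131.2, 117.6 and 119.9 CPM in siControl and 321.1, 278.7 and 292.8 CPM in siSON. With a log2 change of 1.28 (SE 0.07, adjusted p 2.41e-08) it rose 2.42-fold, and its groups were far apart. GARS, the glycine enzyme (ENSG00000106105; chromosome 7, 30594681 to 30634033, 17 exons on the plus strand), had 232.7, 223.8 and 236.9 CPM in siControl and 582.5, 530.0 and 561.5 CPM in siSON. Its log2 change was 1.27 (SE 0.05, adjusted p 5.36e-09), which does not differ from that of YARS beyond the standard errors. CARS (cysteine) and WARS (tryptophan) were the other genes that rose at least 2-fold, with log2 changes of 1.11 and 1.10. AARS (alanine), TARS (threonine), TARSL2 (a second cytosolic threonine enzyme) and SARS (serine) followed with 0.86, 0.84, 0.80 and 0.74. In 15 of the 16 cytosolic genes that rose, FARSB being the exception, siSON replicate 1 had the highest value of its group. Without replicate 1 of both groups, an alternative chosen after seeing the data, all 16 rises and 5 falls among cytosolic genes were still counted. NARS (asparagine), FARSB and HARS (histidine) rose least, by 0.39, 0.34 and 0.30 on the log2 scale. The calls of NARS and HARS were lost under cyclic loess normalization (0.078 and 0.033, limma adjusted p 0.213 and 0.622), and that of HARS also under library size alone (0.10, adjusted p 0.121).

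VARS and FARSA were the free-standing cytosolic genes that fell. VARS, the valine enzyme (ENSG00000204394; chromosome 6, 31777518 to 31795953, minus strand, 30 exons), had 87.97, 87.64 and 84.18 CPM in siControl and 28.33, 23.40 and 20.32 CPM in siSON. The controls were tight and the siSON libraries more spread, with 27.7% of the control mean left (log2 change -1.85, SE 0.10, adjusted p 4.64e-08). The phenylalanine enzyme is built from the catalytic alpha subunit FARSA and the beta subunit FARSB, and the genes of these partners moved apart. FARSA (ENSG00000179115; chromosome 19, 12922479 to 12934037, minus strand, 13 exons) had 56.75, 49.48 and 50.43 CPM in siControl and 29.46, 31.08 and 29.33 CPM in siSON (-0.80, SE 0.07, adjusted p 1.53e-06). FARSB (chromosome 2, 222570536 to 222656337, minus strand, 17 exons) had 34.67, 33.36 and 34.13 CPM in siControl and 42.78, 43.03 and 43.58 CPM in siSON (0.34, SE 0.06, adjusted p 0.000324). Both subunit genes had groups without overlap, as had 79.9% of protein-coding genes tested, on opposite sides of the control level. AARSD1, which holds an editing domain that clears mischarged alanine tRNA, had 66, 76 and 48 counts in siControl and 101, 70 and 37 in siSON. Its groups overlapped, it was not called (log2 change 0.47, SE 0.33, adjusted p 0.226), and it passed without siSON replicate 3 (0.76, adjusted p 0.0399) and under cyclic loess normalization (0.83, limma adjusted p 0.0379). It shares 34.2% of its exonic bases with the read-through gene PTGES3L-AARSD1, so its low count is uncertain.

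**Figure D2:**
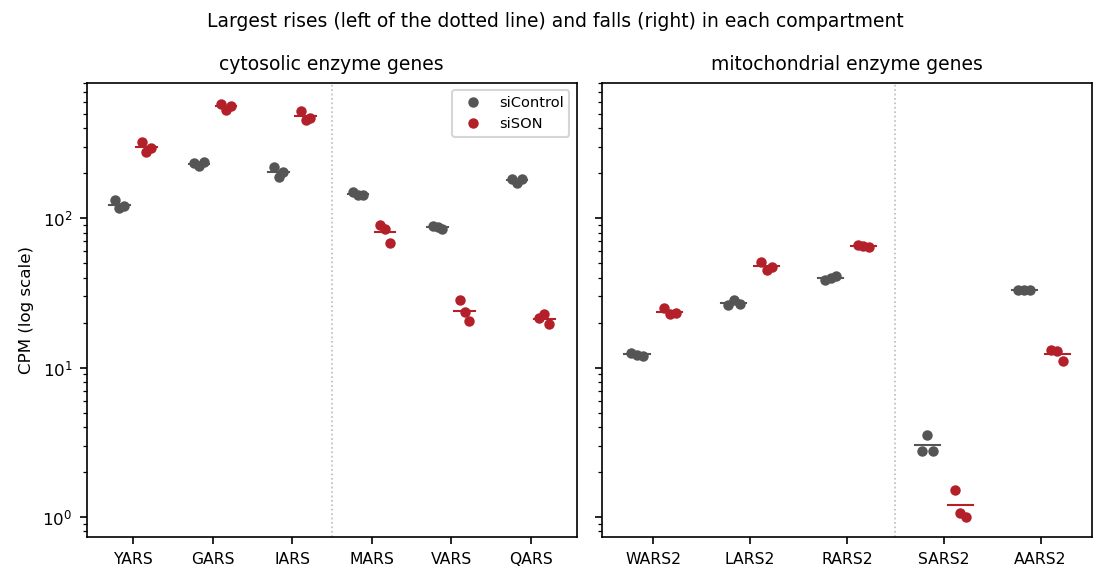
CPM in each library (points, log axis) and group mean (line) of genes with the largest rises and falls among cytosolic and among mitochondrial enzymes. The 11 genes shown were picked by the size of their change, so the lack of overlap between their groups is no further result. Among all genes tested, 75.1% had groups that did not overlap. QARS falls from above 172 to below 22.7 CPM.

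Among the mitochondrial enzymes, which are made from nuclear genes and imported, AARS2, SARS2 and VARS2 were among those that fell at least 2-fold. AARS2 (alanine; ENSG00000124608; chromosome 6, 44299654 to 44313326, minus strand, 22 exons) had 32.76, 33.19 and 33.18 CPM in siControl and 13.11, 12.87 and 11.10 CPM in siSON. That left 37.4% of the control level, a log2 change of -1.42 (SE 0.08, adjusted p 5.37e-08). SARS2 (serine; chromosome 19, 38915266 to 38930896, minus strand, 17 exons) was counted thinly, with 193, 224 and 208 counts in siControl and 88, 55 and 51 in siSON (-1.33, SE 0.21, adjusted p 0.000129). A read-through gene on its own strand, AC011455.2, covers 46.2% of its exonic bases, so its level is uncertain. VARS2 (valine), which lies like VARS in the major histocompatibility region of chromosome 6, went from 23.3 ± 0.889 to 9.28 ± 0.921 CPM (mean ± SD of 3 libraries; -1.33, SE 0.09, adjusted p 2.09e-07). VARS2 shares 22% of its exonic bases with GTF2H4 on its own strand. TARS2 (threonine) fell by 0.61 on the log2 scale (adjusted p 3.07e-05).

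The mitochondrial genes that rose were WARS2, LARS2, RARS2, MARS2, PARS2 and IARS2. WARS2 (tryptophan; chromosome 1, 119031216 to 119140671, minus strand, 6 exons) had 12.57, 12.19 and 11.99 CPM in siControl and 24.86, 22.90 and 23.08 CPM in siSON (log2 change 0.95, SE 0.08, adjusted p 6.99e-07). LARS2 (leucine) had 26.21, 28.48 and 26.73 CPM in siControl and 50.49, 45.18 and 47.27 CPM in siSON (0.81, SE 0.07, adjusted p 1.09e-06). RARS2 (arginine) had 38.78, 39.51 and 41.05 CPM in siControl and 66.11, 65.27 and 63.58 CPM in siSON (0.71, SE 0.06, adjusted p 7.26e-07). In these 3 genes, the largest mitochondrial rises, every siSON library stood above every control. Groups did not overlap for 79.9% of protein-coding genes tested. MARS2 (methionine), a gene of 1 exon, and PARS2 (proline) rose by 0.71 and 0.42 on the log2 scale, though the PARS2 call was lost under library size alone (0.22, adjusted p 0.106). IARS2 (isoleucine) rose by 0.19 (adjusted p 0.00758), but its sign turned under library size alone (-0.0086) and cyclic loess normalization (-0.067), and the call was lost without siControl replicate 1 (0.14).

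The 6 mitochondrial genes that were not called had log2 changes from -0.04 to 0.19. They were CARS2 (0.07, SE 0.12), EARS2 (0.13, SE 0.07), FARS2 (0.19, SE 0.10), HARS2 (0.11, SE 0.07), NARS2 (-0.04, SE 0.10) and YARS2 (0.13, SE 0.07). CARS2 had 86.84 CPM in siControl replicate 1 beside 61.50 and 62.53 in the other controls and 72.57 to 76.33 in siSON. Without that library CARS2 was called higher (0.23, adjusted p 0.00754). FARS2 and YARS2 were called higher without siSON replicate 3 (0.27 and 0.19, adjusted p 0.0404 and 0.0469). FARS2 was also called higher under cyclic loess normalization (0.33, limma adjusted p 0.0141), and NARS2 lower under library size alone (-0.24, adjusted p 0.049).

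For 18 pairs of a cytosolic and a mitochondrial gene serving the same amino acid, the log2 ratio of their counts was computed in each library. Such a ratio does not depend on library scaling. After SON knockdown the ratio was higher without overlap in 12 pairs, lower without overlap in 3, and overlapping in 3. EPRS was paired with both EARS2 and PARS2, and FARS2 with both FARSA and FARSB, so the pairs are not all separate. The share without overlap among other gene pairs was not computed. Among single genes tested, 75.1% had groups that did not overlap. With 3 libraries against 3 the smallest p of a 2-sided exact permutation test is 0.1, and this was its value for each of the 15 pairs without overlap (0.12 adjusted over the 18 pairs). The largest shift toward the cytosolic gene was for alanine, where the AARS to AARS2 log2 ratio rose by 2.28 (SE 0.15). Serine (SARS to SARS2, 2.09, SE 0.19) and threonine (TARS to TARS2, 1.45, SE 0.05) followed. In these 3 pairs the cytosolic gene was called higher and the mitochondrial gene lower. For tyrosine, isoleucine and cysteine the ratio differed by 1.15, 1.04 and 1.02, with the mitochondrial gene not called in tyrosine and cysteine.

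The ratio moved the other way for methionine, phenylalanine and valine. The MARS to MARS2 log2 ratio dropped by 1.56 (SE 0.17), with MARS called lower and MARS2 higher. The FARSA to FARS2 ratio dropped by 0.98 (SE 0.12), although the FARSB to FARS2 ratio differed by 0.16 (SE 0.11) with overlapping groups. For valine both genes fell, VARS more, and the ratio dropped by 0.53 (SE 0.06). For leucine and for EPRS with PARS2 the ratio differed by 0.011 (SE 0.063) and -0.028 (SE 0.054), with both genes of each pair called higher. HARS and HARS2 lie head to head on chromosome 5 and share 437 exonic bases on opposite strands. Their ratio differed by 0.19 (SE 0.05).

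**Figure D3:**
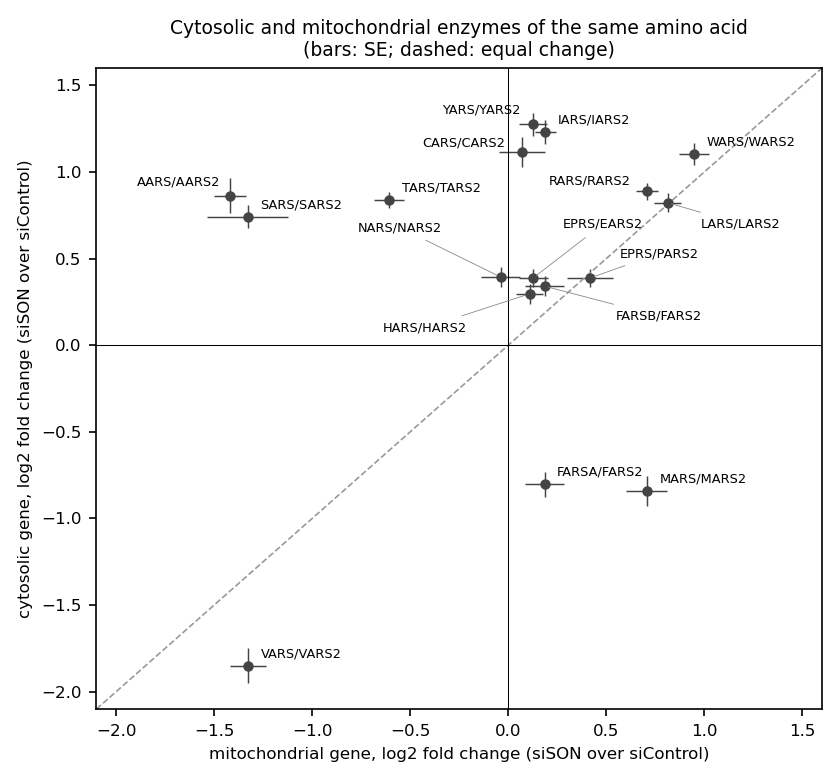
Log2 fold change of the cytosolic gene (vertical axis) against that of the mitochondrial gene (horizontal axis) for 17 of the pairs that serve the same amino acid, with standard errors; the dashed line marks equal change. AARS/AARS2, SARS/SARS2 and TARS/TARS2 lie at the upper left, and FARSA/FARS2 and MARS/MARS2 at the lower right.

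No mitochondrial glutamine enzyme is in the set, because mitochondria charge glutamine tRNA with glutamate and then amidate it with an enzyme of 3 subunits, GATB, GATC and QRSL1. While QARS fell, QRSL1 went from 13.8 ± 1.11 to 25.7 ± 1.73 CPM (mean ± SD of 3 libraries; log2 change 0.89, adjusted p 3.63e-06) and GATB from 18.1 ± 0.387 to 24.9 ± 2.21 CPM (0.46, adjusted p 0.000357). GATC was not called, at 56.5 ± 2.05 and 57.8 ± 1.72 CPM (0.03, SE 0.06). EARS2, the enzyme that supplies the glutamate for this route, was not called, as given above. GATB, GATC and QRSL1 belong to a list of 15 other tRNA genes, which act in amidation, formylation, selenocysteine synthesis, proofreading or a related tRNA step. Of the 15, 7 were called higher, 3 lower and 5 not (median log2 change 0.26). The 10 of 15 called were below the background of 77.4% of protein-coding genes, with 40.3% higher and 37.1% lower. YRDC, which makes the threonylcarbamoyl group of tRNA, had the smallest adjusted p in that list (1.91, adjusted p 9.14e-09).

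The genes were also described by their introns, since SON acts in splicing. In QARS 17 of 23 introns were shorter than 200 bases (73.9%) in the GENCODE 29 model, with a median intron of 122 bases. FARSA (66.7%), VARS (58.6%), VARS2 (51.7%), MARS (45%) and SARS2 (43.8%) came next. These 6 genes, with at least 40% of such introns, were all called lower, with a median log2 change of -1.33. Among all protein-coding genes tested with that share of short introns, 85.1% of 1218 were called, 63.3% lower and 21.8% higher, with a median of -0.72. Just outside lay HARS2 (33.3%, not called), TARS2 (29.4%, lower), AARS2 (28.6%, lower) and AARSD1 (27.3%, not called). The bounds of 200 bases and 40% were chosen after the counts were seen. Of the 24 genes with under 10% of short introns, 18 rose and 2 fell, beside 44.6% and 30.7% of protein-coding genes with that share.

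DARS, with 6.67% of short introns, was among the genes that fell in that range. The paired subunits FARSA and FARSB differed in the same feature: the median intron was 104 bases in FARSA and none of the 16 introns of FARSB was under 200 bases. Likewise AARS had 5% of short introns and AARS2 28.6%, and SARS had 0% and SARS2 43.8%. TARS and TARS2, which also moved in opposite directions, lay closer together in this feature, at 22.2% and 29.4%. HARS (25%) and KARS (21.4%) were called higher with shares not far below that of AARS2. Across the 41 genes with introns, the share of short introns and the log2 change had a Pearson r of -0.77 and a Spearman rho of -0.57. The transcript's GC content and the log2 change had an r of -0.50 and a rho of -0.46 across the same 41 genes. Across the 12701 protein-coding genes with introns r was -0.26 for either feature, and rho was -0.19 for short introns and -0.21 for GC content. These are correlations across genes, which share libraries and are not replicates. The part of either feature in the changes was not tested.

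**Figure D4:**
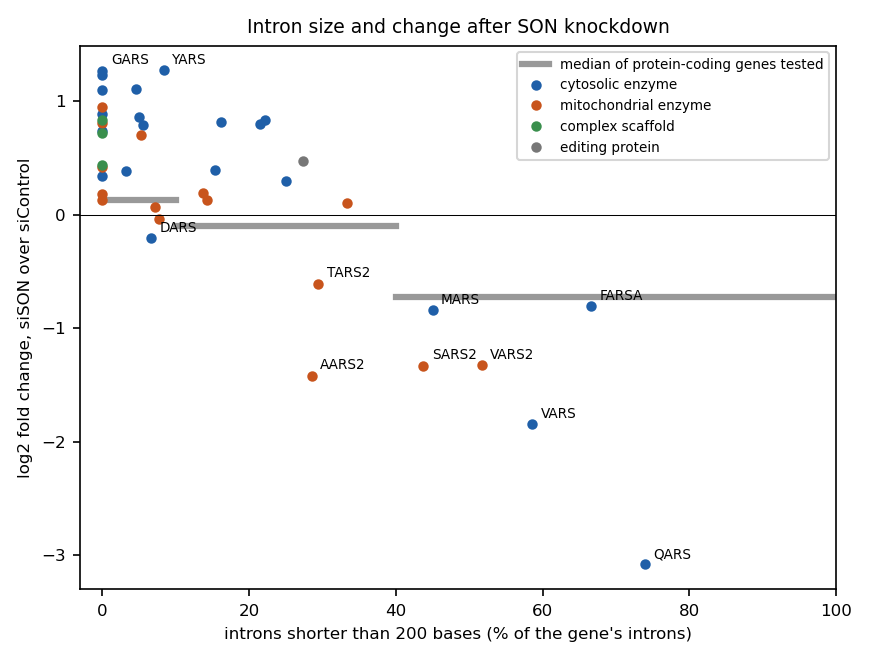
Log2 fold change of 40 genes with introns against the share of its introns shorter than 200 bases; grey bars give the median of all protein-coding genes tested in the ranges 0 to 10%, 10 to 40% and 40 to 100%. The 6 genes at or above 40% are all below 0, with QARS the lowest at -3.08.

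Levels of different genes were compared as CPM per kilobase of exon. In siControl the order was led by GARS (55.7 ± 1.61 CPM per kilobase, SD, n = 3), SARS (44.1 ± 1.80), NARS (42.2 ± 2.0), EPRS (39.5 ± 2.40) and QARS (38.1 ± 1.34). Each of the neighbours from SARS down to QARS differed by less than the sum of their SDs. In siSON GARS (134 ± 6.36) and SARS (73.7 ± 6.47) still led, IARS was at rank 3 (64.8 ± 5.08) and QARS, at 4.50 ± 0.343, was 30th of the 42. SARS and IARS differed by less than the sum of their SDs. VARS went from 18th to 32nd, and YARS from 17th to 10th. The highest mitochondrial gene per kilobase was IARS2 in both groups (25.4 ± 0.749 and 28.9 ± 0.994), and the lowest was SARS2 (0.936 ± 0.134 and 0.370 ± 0.0867), whose level is uncertain because of the shared exons given above.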

How the data were processed

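Messenger RNA of 6 libraries (3 siControl, 3 siSON) was measured by RNA-seq. The table the authors deposited holds raw counts, whole numbers of reads for each gene in each library. The submitters' processing notes name cutadapt 1.16, STAR 2.5.2a, featureCounts 1.6.2, DESeq2 1.28.1 and hg38, and how strand, multi-mapping reads and shared exons were handled is not given in the sources used here. All 58735 identifiers and all 42 member names matched GENCODE 29 of GRCh38, which gave positions, exons and introns (of the principal transcript). RefSeq promoter windows were matched through gene identifiers and current symbols.

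The test was that of edgeR 4.0.16 in R 4.3.3: filterByExpr (minimum count 10), TMM, a robust quasi-likelihood fit on the group, and Benjamini-Hochberg adjustment over the 16591 genes tested. A gene was called at an adjusted p below 0.05. The standard error is the absolute log2 fold change over the square root of F. Ratios used a pseudocount of 0.5 counts. A level of 3 counts was 0.0402 to 0.0590 CPM, which covers counting error only. Alternatives were DESeq2 1.42.0, limma 3.58.1 (voom, and cyclic loess with a trend), RLE factors, library size alone, no filter, a mean count of at least 50, the replicate block and each library left out.

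Members are named with their values, except 1, which, with 1 gene of another list, is counted but not reported here. Library values are given for the 3 largest rises and falls in each compartment and for the scaffolds, FARSA, FARSB, AARSD1, QARS, KARS and GARS. In each other list the 2 genes with the smallest adjusted p are named, with ATF4, the amidotransferase genes and the mitochondrial elongation factors. The lists are synthetase genes known as ATF4 targets, other ATF4 targets, genes of amidation, formylation, selenocysteine and proofreading, tRNA end processing, and elongation factors. Members and lists were chosen with earlier results of these data known. DDIT3, ASNS, EEF1G and the mitochondrial elongation factors were named after their values were seen.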

Additional observations from a re-analysis of the deposited data

How the results depend on the processing

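The number of genes called (35 of 42) was 33 to 36 under the other tools, scalings and filters and without replicate 1 of both groups, and 34 to 38 when each library was left out. Of the 35 called genes, 29 kept their call and direction in every alternative run; the others were DARS, EPRS, HARS, IARS2, NARS and PARS2. The cytosolic median log2 fold change (0.80) was 0.51 under cyclic loess normalization and 0.60 under library size alone. The mitochondrial median (0.13) was 0.063 under cyclic loess normalization, -0.070 under library size alone, and 0.070 with a mean count of at least 50. The signs of uncalled or small changes turned under library size alone for CARS2 (-0.12), EARS2 (-0.070), FARS2 (-0.012), HARS2 (-0.089), IARS2 (-0.0086) and YARS2 (-0.070). They turned under cyclic loess normalization for CARS2 (-0.10), IARS2 (-0.067) and NARS2 (0.15). Leaving out a library turned CARS2 (-0.033 without siControl replicate 2, -0.014 without siControl replicate 3) and NARS2 (0.0030 without siSON replicate 3); over all such omissions CARS2 lay between -0.033 and 0.23 and NARS2 between -0.13 and 0.0030. The cause of these turns was not tested. The pairs with a higher ratio numbered 12 to 13 across its alternatives.

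The deviations of same-numbered libraries had correlations of 0.194, 0.0461 and 0.118, and each library correlated best with its own number. The labels do not state that the numbers pair the libraries, so the fit on the group did not pair them. A replicate block left 35 of the 42 called (25 up, 10 down) and gave 12313 calls over all genes instead of 11888. SARS2 and AARSD1 rested on the fewest counts, at most 224 and 101 in a library.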

Other observations

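Translation elongation factors, which carry charged tRNA to the ribosome and move it along, were called higher in 8 of the 9 tested genes and lower in none, beside 40.3% called higher among protein-coding genes and 50.1% among those with a mean of at least 10 CPM. EIF5A, a factor that helps the ribosome past difficult sequences, rose by 1.14 on the log2 scale (edgeR adjusted p 6.50e-09) and EEF1B2, an exchange factor for EEF1A, by 0.49 (adjusted p 3.37e-06), and the median was 0.38. Of the mitochondrial factors, TUFM was not called (-0.071, SE 0.052), while TSFM, GFM2 and GFM1 were called higher. Their log2 changes were 0.65, 0.38 and 0.24 (edgeR adjusted p 6.48e-06, 0.000432 and 0.00629). EEF1G is listed at 0 counts in every library, and 99.9% of its exonic bases are shared with AP002990.1 on the same strand. ASNS, an ATF4 target that was not called, had 0.155 ± 0.0468 CPM in siControl and 0.250 ± 0.0416 CPM in siSON (mean ± SD of 3 libraries), and AC079781.5 shares 44.6% of its exonic bases.

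Of 24 genes of tRNA end processing and export, 13 were called higher, 6 lower and 5 not, with a median log2 fold change of 0.26. The 19 of 24 called were near the background of 77.4% of protein-coding genes. Besides XPOT, the smallest adjusted p belonged to POP5, a subunit of the RNase P that trims the tRNA 5′ end. The level of POP5 went from 31.5 ± 0.952 to 10.3 ± 0.132 CPM (mean ± SD of 3 libraries), a log2 change of -1.62 (adjusted p 9.92e-09).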
